A study of Mus musculus with 23 samples.

Results

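The comparison described here is the change of the crypt-villus difference in gene expression between postnatal day 0 (P0) and postnatal day 3 (P3) in the mouse small intestine. It uses 12 of the 23 libraries of the series, those labelled P0 or P3, with 3 each in P0 crypt, P0 villus, P3 crypt and P3 villus. All came from epithelium of the middle part of the small intestine in mice of the outbred stock CD1, and the labels give no genetic change or treatment. Cells released with EDTA were sorted as Epcam-positive and CD44-positive (crypt) or Epcam-positive and CD44-negative (villus), and poly(A) RNA was sequenced. The populations are therefore sort gates on a surface protein, not microdissected crypts and villi. For each gene the gap is the crypt level minus the villus level on the log2 scale, and the gap change is the P3 gap minus the P0 gap. A negative gap change means that crypt was lower relative to villus at P3 than at P0. Nothing in the labels ties a replicate to an animal, a litter or a pool, and the p-values thus reflect library-to-library spread, which may be technical.

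In the small intestine, stem cells at the base divide under Wnt signals, and their progeny move up the villus as absorptive enterocytes or as secretory goblet and enteroendocrine cells. At birth the mouse gut has villi but the crypts are still shallow intervillus pockets, and Paneth cells are not yet mature. Enterocytes of the suckling period take up milk fat, sugars and whole proteins, the last through endocytosis and lysosomal digestion.

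Library totals ranged from 24437124 to 32869510 counts. Cd44, whose product was used in the sort, had a gap of 2.70 ± 0.42 (log2, SE) at P0 and 2.34 ± 0.41 at P3, which checks the labels only. The P0 replicate 1 libraries stood apart. Over the 9287 genes with a mean level of at least 3 log2 CPM (counts scaled to library size), the log2 difference between a library and the mean of the other population of its age had an SD of 0.560 in P0 crypt 1 and 0.584 in P0 villus 1. In the other P0 libraries this SD was 0.772 to 0.867, and at P3 it was 0.777 to 0.894. The share of mitochondrially encoded genes was 3.54% to 5.91% in P0 crypt and 5.14% to 11.7% in P0 villus, where replicate 1 was the lowest. At P3 it was 6.14% to 9.13% in crypt and 9.11% to 11.4% in villus. Results are therefore given with and without both P0 replicate 1 libraries.

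Weighted by counts, transcript GC content averaged 49.0% to 49.7% in the P0 libraries and 45.6% to 47.0% in the P3 libraries of both populations. Across 15015 genes (not independent replicates) the change from P0 to P3 had a Spearman correlation with transcript GC content of -0.74 in crypt and in villus. The gap change had a correlation of 0.27, or 0.37 without the P0 replicate 1 libraries. The P3 gap had one of -0.03, and the P0 gap one of -0.25, or -0.30 without that pair. The GC trend of the gap change thus lay in the P0 gap, a difference between the populations within P0. Medians of the main lists are therefore also given after each library's trend on GC content and length had been offset (the GC and length offset), with all libraries and without the P0 replicate 1 pair. The offset also took out the GC trend of the P0 gap, whose correlation was 0.02 after it. The median gap change over all tested genes was 0.05 and 0.03 with the offset, against -0.05 and -0.09 without it.

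Within each age the populations differed in many genes. At P0, 2394 of 15159 tested genes (15.8%) passed the threshold (edgeR quasi-likelihood test, Benjamini-Hochberg adjusted p under 0.05), 1539 higher in crypt (10.2%) and 855 lower (5.64%). At P3, 3895 passed (25.7%), 1881 higher in crypt (12.4%) and 2014 lower (13.3%). From P0 to P3, 6910 genes changed in crypt (45.6%) and 8565 in villus (56.5%), where the GC trend is part of the difference. No gene passed for the gap change (0.0% of 15159), and the lowest adjusted p was 0.795. At an unadjusted p under 0.05, 849 genes were counted (5.6%), 261 with a positive gap change (1.72%) and 588 with a negative one (3.88%). DESeq2 and limma-voom also called 0 genes, with 1056 and 808 under an unadjusted p of 0.05. The direction of these unadjusted counts differed with the scaling. They were 471 positive and 287 negative with scaling by library size alone and 359 and 461 with DESeq2's size factors. The same change to library size moved the median gap change of all genes from -0.05 to 0.10.

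When both P0 replicate 1 libraries were left out, 0 of 15419 genes passed (0.0%), but the lowest adjusted p was 0.0764. There 3095 genes had an unadjusted p under 0.05 (20.1%), 744 positive (4.83%) and 2351 negative (15.2%). Whatever the p, the gap change was below 0 for 8143 of 15159 genes with all libraries. Without the pair it was below 0 for 8272 of the 15088 of these also tested there. At a mean of at least 3 log2 CPM these counts were 5621 and 5885 of 9287. At that level and an unadjusted p under 0.05, 118 were positive and 446 negative with all libraries, and 378 and 2063 without the pair. Without the pair the P0 gap passed for 5102 genes (33.1%), 3169 higher in crypt (20.6%) and 1933 lower (12.5%). At P3 this fit had 4797 called genes (31.1%), 2345 higher (15.2%) and 2452 lower (15.9%). Leaving out P0 villus 1 alone gave 3128 genes under an unadjusted p of 0.05 and a lowest adjusted p of 0.0713. Leaving out P0 crypt 1 alone gave 579. With a replicate block within age, 1511 genes were under an unadjusted p of 0.05 and 0 were called. A setting chosen after seeing the data joined the GC and length offset with leaving out both P0 replicate 1 libraries. There 200 of 15419 genes were called, 142 positive and 58 negative.

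The median SE of the gap change was 0.41, against 0.29 for either gap alone. Of the 9287 genes at a mean of at least 3 log2 CPM, 48.1% had a 95% interval of the gap change that lay within 1 log2 unit of 0. For these a doubling or halving of the crypt-to-villus ratio lies outside the interval.

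**Figure D1:**
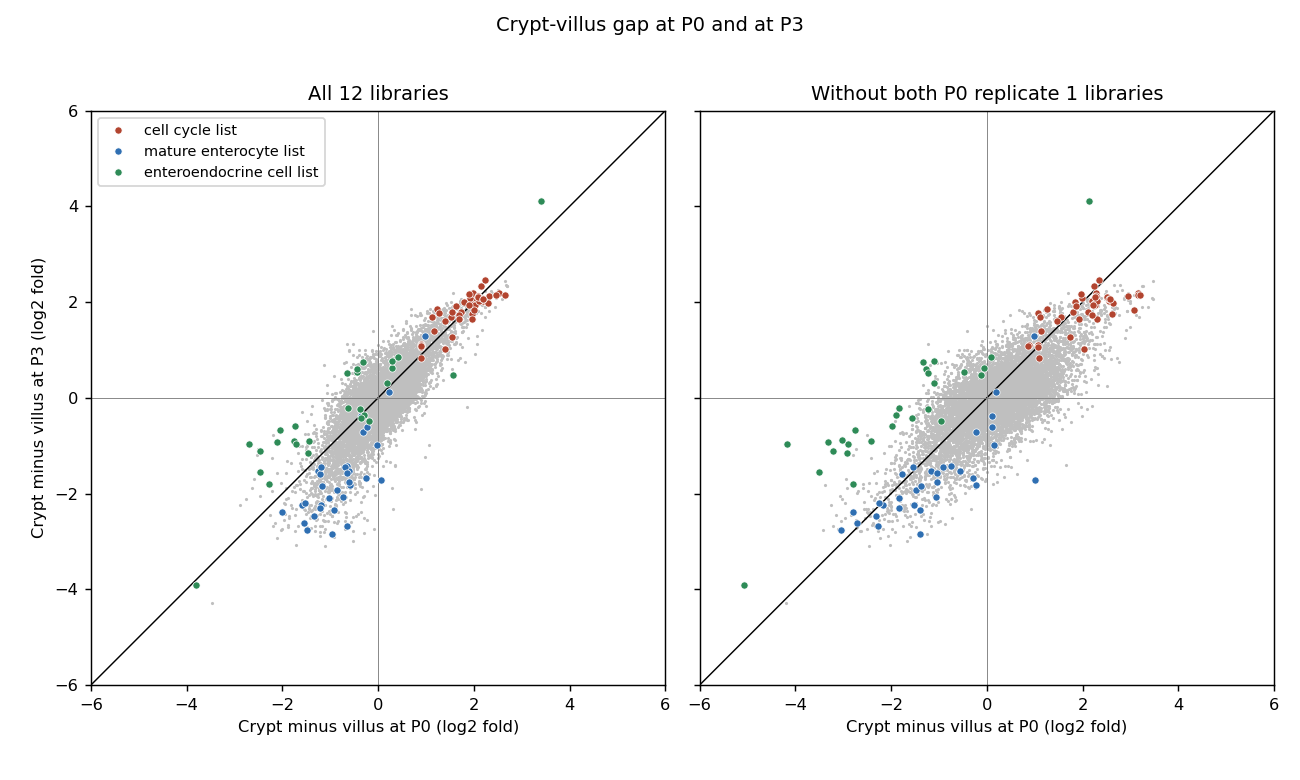
Each point is a gene with a mean of at least 3 log2 CPM (grey) or a tested member of a named list (colour), with the crypt minus villus log2 difference at P0 on the x axis and at P3 on the y axis; the diagonal marks an equal gap. Cell cycle genes lie close to the diagonal with all 12 libraries, most mature enterocyte genes lie under it, and all 27 enteroendocrine genes lie above it without the P0 replicate 1 libraries.

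With all 12 libraries proliferation genes separated crypt from villus to a like extent at both ages. All 43 tested cell cycle genes were higher in crypt at P0 and at P3, where 10.2% and 12.4% of all tested genes were. The median gap of the list was 1.93 at P0 and 1.93 at P3, and its median gap change was 0.04 beside -0.05 over all tested genes. For 28 of the 43 the 95% interval lay within 1 log2 unit of 0. Mki67, which encodes a nuclear protein of dividing cells, had 8.18, 9.01 and 8.91 log2 CPM in P0 crypt and 7.25, 7.04 and 6.65 in P0 villus. At P3 it had 8.97, 9.37 and 9.16 in crypt and 7.41, 7.33 and 7.43 in villus. Crypt and villus libraries did not overlap at either age, and P0 crypt 1 was the lowest crypt library. The Mki67 gap was 1.74 ± 0.24 at P0 and 1.79 ± 0.24 at P3, with a gap change of 0.04 (95% interval -0.67 to 0.75). For Top2a, the DNA topoisomerase of dividing cells, the gap change was -0.16 (-0.88 to 0.55). Without the P0 replicate 1 libraries the list's P0 gap had a median of 2.19, and the median gap change was -0.25. At an unadjusted p under 0.05, 9 of 43 were negative and 1 positive, beside 15.2% and 4.83% of all genes. Of the genes at a mean of at least 3 log2 CPM, 2063 of 9287 were negative at that p, a share near that of the list. The Mki67 gap change was -0.32 there and that of Top2a -0.53. The list median was 0.16 with the GC and length offset and 0.03 with the offset and without those libraries.

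Stem cell and Wnt target genes had medians near 0 with all libraries. Of 28 tested stem cell genes, 19 were higher in crypt at P0 and 22 at P3, where 10.2% and 12.4% of all tested genes were. The median gap change was 0.07, or -0.21 without the P0 replicate 1 libraries. The GC and length offset gave 0.23 and -0.10. Lgr5, a marker of crypt base stem cells, had 5.78, 6.76 and 5.74 log2 CPM in P0 crypt and 4.03, 3.41 and 2.70 in P0 villus. It had 6.70, 7.54 and 7.75 in P3 crypt and 4.63, 5.09 and 5.38 in P3 villus. Every P3 villus library lay above every P0 villus library, and in crypt P3 crypt 1 lay just under P0 crypt 2. The change from P0 to P3, which takes in the GC trend, was 1.22 ± 0.38 in crypt and 1.59 ± 0.39 in villus. Both passed the threshold, but without the P0 replicate 1 libraries that of crypt was 1.05 ± 0.39 and did not. The gap was 2.70 ± 0.40 at P0 and 2.33 ± 0.39 at P3. The Lgr5 gap change of -0.36 had an interval from -1.53 to 0.80, which holds a halving of the crypt-to-villus ratio. It was -0.92 ± 0.55 without the P0 replicate 1 libraries (unadjusted p = 0.122, edgeR), -0.76 without P0 villus 1 alone and -0.45 with the GC and length offset and without the pair.

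Olfm4, a secreted stem cell glycoprotein, had 9.44, 9.87 and 9.56 log2 CPM in P0 crypt and 7.83, 6.08 and 6.42 in P0 villus. At P3 it had 10.92, 11.76 and 11.48 in crypt and 8.42, 9.11 and 9.29 in villus. P0 villus 1 stood above the other P0 villus libraries. The gap change of Olfm4 was -0.20 ± 0.58, and -1.03 ± 0.43 without the P0 replicate 1 libraries (unadjusted p = 0.038, adjusted p = 0.218, edgeR). Among 20 Wnt targets the median gap was 0.81 at P0 and 1.22 at P3 and the median gap change 0.12 (0.18 with the offset). Leaving out the P0 replicate 1 libraries gave -0.11 (-0.15 with the offset), with 13 of 20 below 0 and 2 negative at an unadjusted p under 0.05. Over all genes 8272 of 15088 were below 0 there and 15.2% were negative at that p. Sox4, a transcription factor of progenitors, had 0.91 ± 0.39 and 0.86 ± 0.42. The stem cell list held 2 positive and 0 negative members at an unadjusted p under 0.05 with all libraries, beside 1.72% and 3.88% of all genes. Without the pair 2 of 28 were positive and 6 of 28 negative, beside 4.83% and 15.2% of all genes. The 2 positive ones with all libraries were named after their values were seen. Kcne3, a potassium channel subunit, had 0.69 ± 0.29 and 0.57 ± 0.25 without the pair, and Pdgfa, a growth factor for the mesenchyme, had 0.89 ± 0.34 and 1.13 ± 0.23.

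Ribosome biogenesis genes were also crypt genes, 19 of 26 at P0 and 22 at P3, where 10.2% and 12.4% of all tested genes were higher in crypt. Their median gap was 0.80 at P0 and 1.05 at P3, and 23 of 26 had a gap change above 0, with a median of 0.24 (0.11 without the P0 replicate 1 libraries, 0.34 with the GC and length offset and 0.27 with both). Ncl, which encodes nucleolin, had a gap change of 0.31 ± 0.28 and Npm1, which encodes nucleophosmin, one of 0.22 ± 0.30. With the offset these were 0.77 and 0.37, and with the offset and without the pair 0.99 and 0.32. In the latter fit, where 200 of 15419 genes were called, the list members Dkc1 and Nop58 passed the threshold at 1.04 and 1.13. Both were picked after their values were seen.

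**Figure D2:**
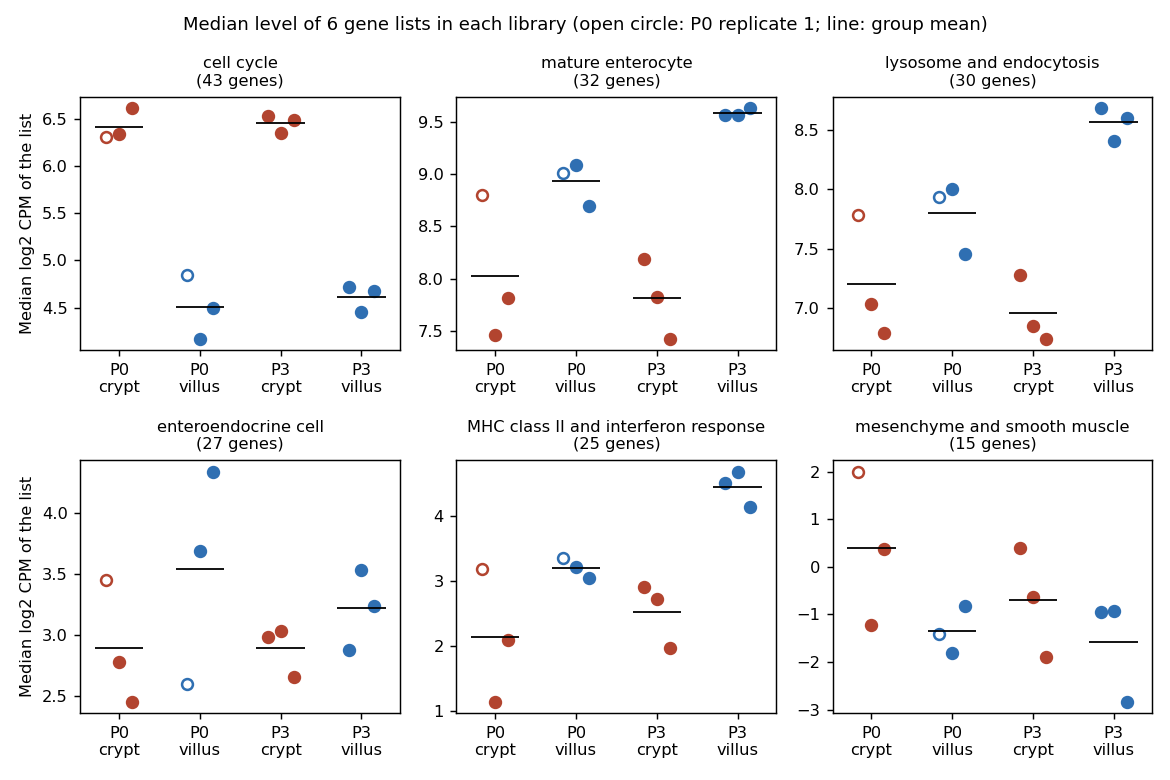
Each panel shows the median log2 CPM over the tested members of a list in each of the 12 libraries, by group, with P0 replicate 1 as open circles and the group mean as a line. The cell cycle list separates crypt from villus alike at both ages, while P0 crypt 1 lies near the villus libraries for the mature enterocyte list (8.80 against 7.46 and 7.82 in the other P0 crypt libraries).

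Enterocyte genes had a more negative gap at P3 than at P0 in nearly all members, but none passed for the gap change. Among 32 mature enterocyte genes, 6 were lower in crypt at P0 (5.64% of all tested genes were) and 26 at P3 (13.3% of all). Without the P0 replicate 1 libraries 21 of 32 were lower at P0, where 12.5% of all tested genes were. The median gap was -0.79 at P0 and -1.80 at P3. The median gap change was -0.94, with 31 of 32 below 0 and 8 at an unadjusted p under 0.05, beside 3.88% of all genes. Leaving out the P0 replicate 1 libraries brought the median to -0.48, with 25 of 32 below 0 and 7 at an unadjusted p under 0.05. That was beside 15.2% of all genes, and near the 2063 of 9287 genes at a mean of at least 3 log2 CPM. P0 crypt 1 moved with the list's median gap change. The median level of the list was 8.80 log2 CPM there and 7.46 and 7.82 in P0 crypt 2 and 3, against 8.70 to 9.09 in P0 villus. The median gap change was -0.44 without P0 crypt 1 alone. The offset gave -0.86, and -0.46 without the pair.

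Apoa4, an apolipoprotein of chylomicrons, had 14.03, 11.39 and 12.48 log2 CPM in P0 crypt and 14.34, 14.23 and 14.51 in P0 villus. It had 11.70, 10.65 and 10.38 in P3 crypt and 13.37, 12.85 and 14.02 in P3 villus. P0 crypt 1 was near the villus libraries, the other crypt libraries well under them. The gap change of Apoa4 was -1.13 ± 0.79 with all libraries and -0.14 ± 0.67 without the P0 replicate 1 libraries. Fcgrt, the neonatal Fc receptor that takes up maternal antibody, went from -1.01 ± 0.83 to 0.16 ± 0.67 in the same way, and Fabp1, a fatty acid binding protein, from -0.39 ± 0.62 to 0.40 ± 0.54. For Alpi, the intestinal alkaline phosphatase, the gap change was -1.06 ± 0.56 and -0.44 ± 0.46. Lct, the lactase of the suckling brush border, had -1.03 ± 0.54 and -0.70 ± 0.43.

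For other enterocyte genes leaving out these libraries moved the gap change away from 0 (Apob and Dpp4) or by less (Slc5a1). The GC and length offset brought it closer to 0. Apob, the structural apolipoprotein of chylomicrons, had 11.13, 10.09 and 11.18 log2 CPM in P0 crypt and 12.13, 10.98 and 10.95 in P0 villus. It had 11.09, 11.57 and 11.11 in P3 crypt and 13.14, 13.24 and 12.89 in P3 villus. Its P3 villus libraries were the highest of the 12, and the populations overlapped at P0. The gap change of Apob was -1.24 ± 0.51 (unadjusted p = 0.0308), and -1.61 ± 0.43 without the P0 replicate 1 libraries (adjusted p = 0.0966, edgeR). Dpp4, a peptidase, had -0.96 ± 0.34 and -1.13 ± 0.29, and Slc5a1, the sodium-glucose transporter, had -0.77 ± 0.30 and -0.67 ± 0.26. With the offset and without the P0 replicate 1 libraries Apob had -0.89, Dpp4 -0.43 and Slc5a1 -0.36. These 3 were picked after their values were seen.

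Among functional groups of enterocyte genes, amino acid and peptide handling had a like median in both fits. All 21 of its tested members had a negative gap change, with a median of -0.75. Without the P0 replicate 1 libraries 20 of 21 did, with a median of -0.72. There 8 of 21 were negative at an unadjusted p under 0.05, beside 15.2% of all genes. The GC and length offset gave medians of -0.61 and -0.50. The list shares 7 tested genes with the mature enterocyte list. For lipid absorption all 24 were negative with a median of -0.71, but the median was -0.17 without those libraries. With the offset these were -0.73 and -0.44. The suckling-type list moved from -0.82 to -0.19 (-0.70 and -0.19 with the offset). The 10 adult-type genes had -0.50 in both fits, and -0.29 in both with the offset. Brush border structure had -0.52 and -0.35 (-0.49 and -0.33 with the offset), and its member Pls1, an actin-bundling fimbrin, had -1.29 ± 0.51 and -1.22 ± 0.34, or -0.72 with the offset and without the pair. Fatty acid oxidation and ketogenesis had -0.38 and -0.50 (-0.31 and -0.34 with the offset). Prdm1, a repressor that keeps the fetal and suckling enterocyte program, had 6.45, 6.92 and 7.12 log2 CPM in P0 crypt and 6.96, 6.49 and 6.29 in P0 villus. At P3 Prdm1 had 7.45, 7.27 and 7.64 in crypt and 8.39, 8.18 and 8.02 in villus, so that the groups overlapped at P0 and not at P3. The overlap at P0 came from replicate 1 alone. With all libraries its gap was 0.25 ± 0.22 at P0 and -0.75 ± 0.22 at P3. Without the P0 replicate 1 libraries its gap passed at both ages with opposite signs. It was 0.64 ± 0.19 at P0 (adjusted p = 0.0289, edgeR) and -0.75 ± 0.16 at P3 (adjusted p = 0.00558, edgeR). The gap change of Prdm1 was -0.99 ± 0.32 (unadjusted p = 0.00812), or -1.38 ± 0.25 without the P0 replicate 1 libraries (adjusted p = 0.0764, edgeR) and -0.87 with the offset as well. Cdx2 and Hnf4a, transcription factors that define the intestinal epithelium, had gap changes of 0.22 ± 0.31 and 0.08 ± 0.25.

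**Figure D3:**
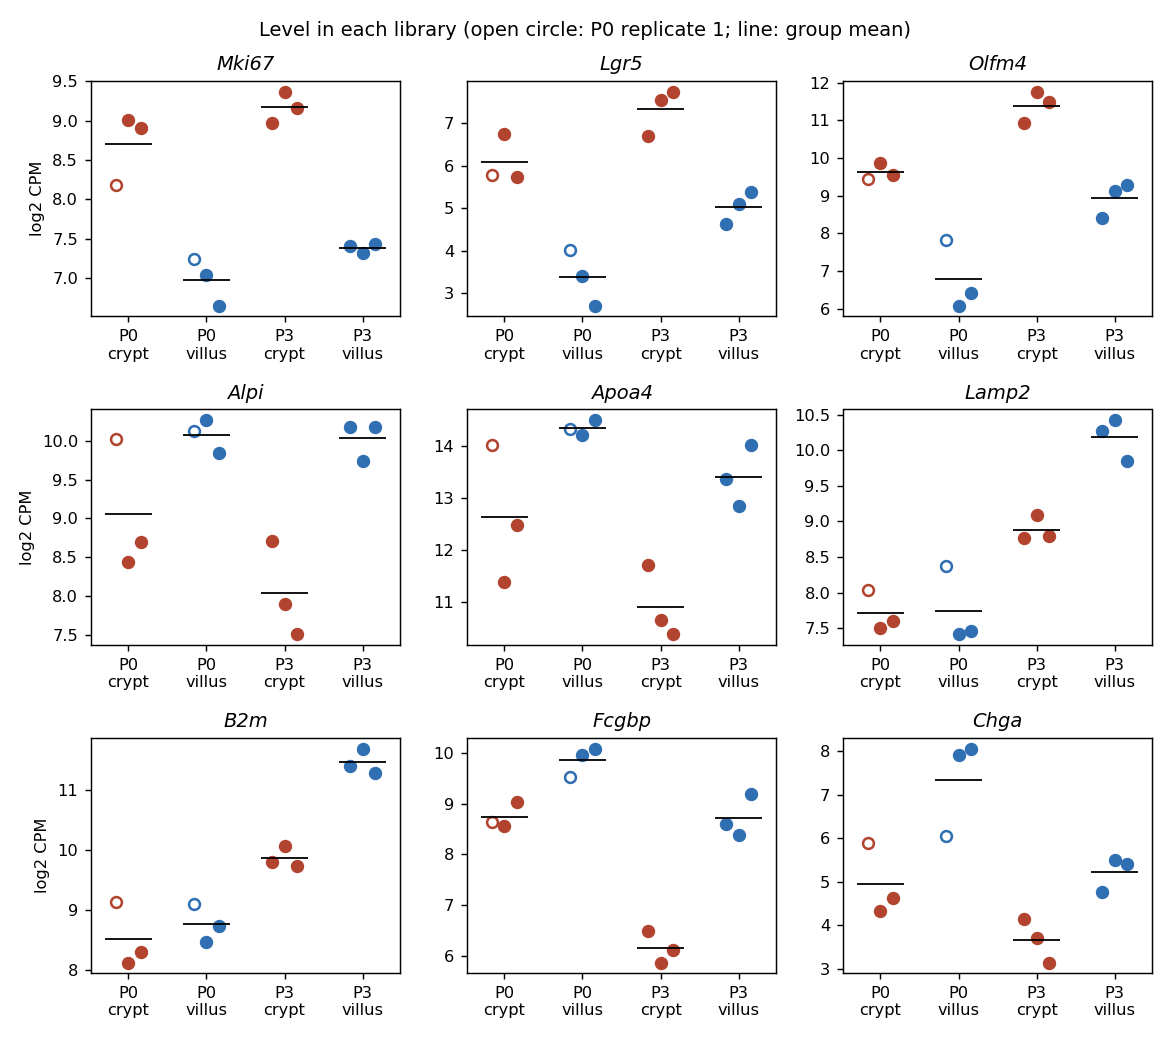
Log2 CPM of 9 genes in each of the 12 libraries by group, with P0 replicate 1 as open circles and a line at the group mean; the y axes differ and do not start at 0. Mki67 has equal gaps at both ages. Lamp2 and B2m overlap between the populations at P0, through replicate 1 alone, and not at P3. The P0 replicate 1 crypt library lies above the other P0 crypt libraries for Apoa4 and Chga.

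Lysosomal and endocytic genes, which serve the digestion of milk proteins inside enterocytes, gave 3 of 30 lower in crypt at P0 (5.64% of all genes were) and 23 at P3 (13.3% of all). Without the P0 replicate 1 libraries 20 of 30 were lower at P0 (12.5% of all) and 25 at P3 (15.9% of all). The median gap change was -0.87, with 29 of 30 negative and 10 at an unadjusted p under 0.05, beside 3.88% of all genes. It was -0.32 without those libraries, with 23 negative and 6 of 30 at an unadjusted p under 0.05, near the 15.2% of all genes. After the GC and length offset the medians were -0.77 and -0.32. Lamp2, a lysosomal membrane protein, had 8.04, 7.50 and 7.60 log2 CPM in P0 crypt and 8.37, 7.41 and 7.46 in P0 villus. In P3 crypt it had 8.76, 9.10 and 8.79 and in P3 villus 10.27, 10.42 and 9.85. The P3 villus libraries stood above all others, and the P0 groups overlapped, through replicate 1 alone. For Lamp2 the gap change was -1.23 ± 0.39 (unadjusted p = 0.00805) and -1.43 ± 0.28 without the P0 replicate 1 libraries (adjusted p = 0.0764, edgeR). With the offset as well it was -0.83 and passed the threshold (adjusted p = 0.0498, edgeR). Ctsl, a cysteine protease, had the lowest gap change of the list at -2.65 ± 1.17, and -0.75 ± 0.63 without those libraries. P0 crypt 1 held 10.72 log2 CPM of Ctsl and P0 crypt 2 and 3 held 7.04 and 7.06. Lamp2 and Ctsl were picked after their values were seen.

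Interferon response and antigen presentation genes had negative medians. Of 25 tested members of the MHC class II and interferon list, 6 were lower and 3 higher in crypt at P0 (5.64% and 10.2% of all genes were), and 19 were lower and 1 higher at P3 (13.3% and 12.4% of all). The median gap was -0.73 at P0 and -1.80 at P3. The gap change had a median of -1.21, with 24 of 25 negative and 7 at an unadjusted p under 0.05, beside 3.88% of all genes. Without the P0 replicate 1 libraries the median was -0.69, with 23 negative and 2 at an unadjusted p under 0.05, a smaller share than the 15.2% of all genes. After the offset the medians were -1.12 and -0.74. The list median was 3.18 log2 CPM in P0 crypt 1 and 1.14 and 2.09 in P0 crypt 2 and 3. In the villus libraries it was 3.05 to 3.36 at P0 and 4.15 to 4.69 at P3.

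B2m, the light chain of MHC class I molecules, had 9.13, 8.12 and 8.30 log2 CPM in P0 crypt and 9.10, 8.46 and 8.73 in P0 villus. It had 9.79, 10.07 and 9.74 in P3 crypt and 11.41, 11.69 and 11.29 in P3 villus. Every P3 library was above every P0 library, and P3 villus was above P3 crypt without overlap. The B2m gap was -0.20 ± 0.28 at P0 and -1.60 ± 0.28 at P3, which gave a gap change of -1.40 ± 0.39 (unadjusted p = 0.00349). Without the P0 replicate 1 libraries it was -1.22 ± 0.28 (adjusted p = 0.0843, edgeR), and with the GC and length offset as well it was -1.25 and passed the threshold (adjusted p = 0.0291). Ifit1, an interferon-induced RNA-binding protein, had a gap of -1.74 ± 0.41 at P0 and -2.46 ± 0.41 at P3, both past the threshold, and a gap change of -0.71 ± 0.56, which was -0.26 ± 0.54 without the P0 replicate 1 libraries and 0.13 with the offset as well. Ifit2, a related gene picked after its values were seen, had -2.63 ± 1.09, or -1.99 ± 1.11 without the P0 replicate 1 libraries, and Oasl2, an oligoadenylate synthetase-like gene picked likewise, had -1.37 ± 0.55 and -0.89 ± 0.51. Cd74, the MHC class II invariant chain, was low, from -3.14 to 1.88 log2 CPM over the 12 libraries, and was higher in crypt, against the direction of most of the list. Its gap was 2.77 ± 0.79 at P0 (adjusted p = 0.034, edgeR) and 2.30 ± 0.76 at P3 (adjusted p = 0.0428). The P0 gap of Cd74 without the P0 replicate 1 libraries was 1.79 ± 0.81 and did not pass (adjusted p = 0.115, edgeR). The 14 genes of MHC class I had a median of -0.65 and -0.37 without the P0 replicate 1 libraries (-0.61 and -0.46 with the offset).

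The promoters of B2m and Ifit1 are shown because both hold the interferon-stimulated response element (ISRE), here GAAA, any 2 bases and GAAA, searched on both strands. They are the 250 bases before the start site on the gene's strand, 5′ to 3′, from RefSeq on GRCm38.p6, with matches in capitals.
B2m, chr2:122147437-122147686 (+): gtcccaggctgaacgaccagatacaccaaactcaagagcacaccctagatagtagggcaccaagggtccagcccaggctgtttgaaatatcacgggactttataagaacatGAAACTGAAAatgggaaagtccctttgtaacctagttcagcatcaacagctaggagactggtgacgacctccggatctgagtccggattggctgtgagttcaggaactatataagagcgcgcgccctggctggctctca
Ifit1, chr19:34640639-34640888 (+): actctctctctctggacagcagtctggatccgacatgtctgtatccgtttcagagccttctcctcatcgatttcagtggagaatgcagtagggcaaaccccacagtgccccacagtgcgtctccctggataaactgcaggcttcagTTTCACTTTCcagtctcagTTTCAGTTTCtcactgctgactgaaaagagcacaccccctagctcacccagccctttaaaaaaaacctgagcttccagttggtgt
B2m has 1 match, in the orientation of the gene, and Ifit1 has 2, both on the other strand. Of 25 tested genes of the interferon list 17 had a promoter in the table, and 9 of these (52.9%) held the element, against 936 of all 27025 genes of the table (3.46%). In the MHC class I list it was 2 of 11. Among 28 mature enterocyte promoters, 4 held the HNF4 motif CAAAGTCCA, against 0.451% of all genes. The promoters of Ifit2, Oasl2, Irf1 and H2-T3, searched in the same way, held 0 matches. A match describes the sequence only.

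Secretory cell genes went several ways. The 27 enteroendocrine genes had a median gap change of 0.56, with 22 positive and 1 at an unadjusted p under 0.05, where 1.72% of all genes were positive. Without the P0 replicate 1 libraries all 27 were positive with a median of 1.62, and 19 of 27 had an unadjusted p under 0.05, where 4.83% of all genes did in that direction. The median P0 gap was -0.62 with all libraries and -1.83 without those 2, and the median P3 gap was -0.43 in both fits. With the GC and length offset the median gap change was 0.43 with all libraries and 1.42 without the pair. With all libraries 9 of 27 were lower in crypt at P0 (5.64% of all genes were) and 3 of 27 at P3, the latter near the 13.3% of all genes. Without the pair 20 of 27 were lower at P0 (12.5% of all) and 6 of 27 at P3 (15.9% of all). Fewer enteroendocrine cells in a gate and less RNA of these genes per cell cannot be told apart in sorted bulk samples.

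Chga, which encodes the granule protein chromogranin A, had 5.89, 4.32 and 4.63 log2 CPM in P0 crypt and 6.05, 7.92 and 8.06 in P0 villus. It had 4.15, 3.69 and 3.14 in P3 crypt and 4.76, 5.50 and 5.41 in P3 villus. P0 crypt 1 and P0 villus 1 were nearly equal, while the other P0 libraries of the populations were far apart. For Chga the gap change was 0.92 ± 0.71, and 1.96 ± 0.42 without those libraries (adjusted p = 0.0827, edgeR). Chgb, a related granule protein, had 9.16, 7.20 and 7.61 in P0 crypt and 7.53, 9.24 and 9.27 in P0 villus, so replicate 1 had the opposite order to replicates 2 and 3. Its gap change was 0.41 ± 0.70 with all libraries and 1.62 ± 0.33 without (adjusted p = 0.0776, edgeR).

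Most hormone genes had positive gap changes. Ghrl, which encodes ghrelin, had a gap change of 1.72 ± 1.15 and 3.20 ± 0.82 without the P0 replicate 1 libraries, Pyy, the gene of peptide YY, 1.20 ± 0.86 and 2.39 ± 0.48, and Cck, the gene of cholecystokinin, 0.31 ± 0.84 and 1.77 ± 0.35. Tph1, the serotonin-synthesis enzyme, had 1.34 ± 0.65 and 2.09 ± 0.50. Gip, the gene of the incretin GIP, differed from the list median in the sign of its gap, not in that of its gap change. It was higher in crypt at both ages, by 3.41 ± 0.68 at P0 and 4.12 ± 0.70 at P3, with 9.92, 8.41 and 7.90 log2 CPM in P0 crypt and 3.65, 6.17 and 5.95 in P0 villus. P0 replicate 1 had the widest separation for Gip, and the gap change was 0.71 ± 0.87 with all libraries and 2.0 ± 0.55 without them. Nts, the gene of neurotensin, was lower in crypt at both ages, with gaps of -3.80 ± 0.59 at P0 and -3.91 ± 0.59 at P3. Its gap change was -0.11 ± 0.75 with all libraries, 0.82 without P0 crypt 1 and 1.17 ± 0.46 without the pair. With the GC and length offset and without the P0 replicate 1 libraries, Pyy, Tph1 and the endocrine transcription factor Pax6 passed the threshold, at 1.64, 2.59 and 2.39. Apart from Gip, these hormone and enzyme genes, and Chga, were picked after their values were seen.

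Goblet cell genes had a median gap change of 0.18, or 0.29 without the P0 replicate 1 libraries, and -0.008 and -0.0029 with the GC and length offset. In crypt 15 of 22 were lower at P0 and 10 at P3, where 5.64% and 13.3% of all genes were. Without the pair these counts were 15 and 13, beside 12.5% and 15.9% of all genes. Fcgbp, a mucus protein that binds the Fc part of IgG, had 8.63, 8.55 and 9.02 log2 CPM in P0 crypt and 9.51, 9.96 and 10.08 in P0 villus. At P3 Fcgbp had 6.50, 5.88 and 6.13 in crypt and 8.60, 8.38 and 9.18 in villus. All crypt libraries at P3 were over 2 log2 units under those at P0. The gap change was -1.45 ± 0.36 (unadjusted p = 0.00166), and -1.37 ± 0.39 without the P0 replicate 1 libraries. With the GC and length offset as well it was -1.12 and passed the threshold (adjusted p = 0.048, edgeR). Clca1, a secreted mucus-processing protease, had -1.34 ± 0.34 and -1.05 ± 0.29, and Muc2, the gel-forming mucin, had -0.81 ± 0.34 and -0.70 ± 0.31. Other members had positive values, such as Spink4 (with Clca1 picked after its values were seen) at 1.43 ± 0.75 and the trefoil peptide gene Tff3 at 0.64 ± 0.67, or 0.10 for Tff3 with the offset. The list so held values from -1.45 to 1.43, with 3 of 22 negative at an unadjusted p under 0.05, beside 3.88% of all genes. Paneth cell genes had a median of 0.29 and 0.37 without the pair (0.21 and 0.29 with the offset), and Lyz1, the Paneth lysozyme, had 0.04 ± 0.52 at levels of 1.58 to 3.93 log2 CPM. Tuft cell markers were near the limit of detection, with 4 of 14 tested.

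Adhesion genes had negative median gap changes with and without the P0 replicate 1 libraries. In the hemidesmosome and basement membrane list the median was -0.51 with 19 of 24 negative, and -0.58 without those libraries, where 9 of 24 were negative at an unadjusted p under 0.05, beside 15.2% of all genes. With the GC and length offset the medians were -0.43 in both fits. Itgb1, the integrin beta-1 subunit, had 8.40, 8.16 and 8.39 log2 CPM in P0 crypt and 8.39, 7.50 and 7.46 in P0 villus. It had 8.86, 9.35 and 9.09 in P3 crypt and 9.43, 9.79 and 9.21 in P3 villus. P0 villus 1 was above the other P0 villus libraries. The gap change of Itgb1 was -0.85 ± 0.37, and -1.19 ± 0.30 without the replicate 1 pair (adjusted p = 0.0883, edgeR), or -0.78 with the offset as well. Dag1, the gene of dystroglycan, had -0.55 ± 0.34 and -0.95 ± 0.22 (adjusted p = 0.0843, edgeR). Cell junction genes had a median of -0.18 and -0.46, with 1 and 13 of 27 negative at an unadjusted p under 0.05, beside 3.88% and 15.2% of all genes. Ctnnb1, the gene of beta-catenin, had -0.62 ± 0.29 and -0.87 ± 0.23. With the GC and length offset the median of the junction list was -0.18, and -0.31 without the pair. With scaling by library size alone and all libraries it was -0.03. All genes at a mean of at least 3 log2 CPM had medians of -0.11 in the main fit and -0.19 without the pair.

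**Figure D4:**
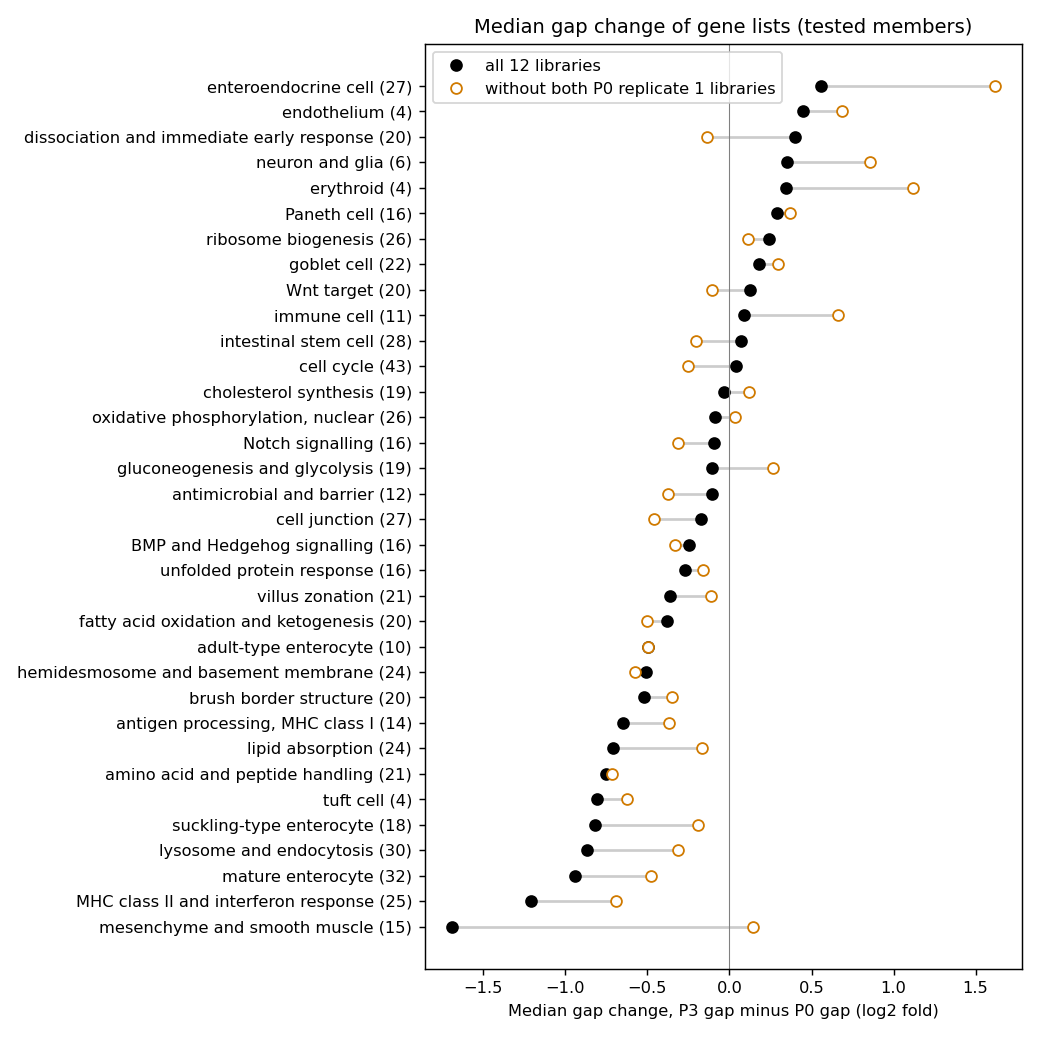
Median gap change in log2 units of gene lists with its number of tested members, for all 12 libraries (filled) and without both P0 replicate 1 libraries (open). The mature enterocyte, lipid absorption and lysosome lists move towards 0 without those libraries, the first from -0.94 to -0.48, and the enteroendocrine list moves away from it, from 0.56 to 1.62.

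With all libraries the metabolic lists had medians near that of all genes. The median gap change was -0.09 for 26 nuclear genes of oxidative phosphorylation, of which 19 had an interval within 1 log2 unit of 0. It was -0.10 for gluconeogenesis and glycolysis and -0.03 for cholesterol synthesis. These medians were above 0 without the P0 replicate 1 libraries, at 0.03, 0.27 and 0.12, beside -0.09 over all genes. That of cholesterol synthesis was -0.65 without P0 villus 2. With scaling by library size alone these 3 medians were positive, as were those of Notch signalling and of antimicrobial and barrier genes. The 20 immediate early and dissociation genes had 0.40 with all libraries and -0.14 without the P0 replicate 1 libraries. Notch signalling had -0.09 and -0.31, BMP and Hedgehog signalling -0.25 and -0.33, the unfolded protein response -0.27 and -0.16, villus zonation -0.36 and -0.11, and antimicrobial and barrier genes -0.11 and -0.38.

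Markers of cells outside the epithelium were low and differed between libraries. Summed over the 18 listed mesenchyme and smooth muscle genes, the level was 82.4 CPM in P0 crypt 1, 14.1 and 30.2 in P0 crypt 2 and 3, 10.1 to 21.1 in P0 villus, 7.97 to 33.7 in P3 crypt and 6.30 to 13.1 in P3 villus. The median gap change of the 15 tested was -1.69, the lowest of all lists, and 0.14 without the P0 replicate 1 libraries. For the 17 immune cell genes in the files the sum was 97.0 CPM in P0 crypt 1, 22.4 and 35.1 in P0 crypt 2 and 3, and 87.9 to 120.2 in P0 villus. At P3 it was 22.3 to 38.2 in crypt and 68.6 to 93.0 in villus. One gene, Csf1r, the receptor for macrophage growth factors, held most of this sum in the villus libraries (6.38 to 6.82 log2 CPM at P0), while Ptprc, the leukocyte common antigen, was at -3.83 to -3.31 log2 CPM there, and Cd3e and Cd8a had no counts in P0 crypt or P0 villus. Endothelial sums were 6.61 to 13.6 CPM, neuron and glia sums 19.9 to 82.3 and erythroid sums 2.56 to 16.5. The part of these cells in the gap changes was not tested.

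Outside the lists, the genes with the smallest unadjusted p at a mean of at least 3 log2 CPM had a negative gap change, and they were named after their values were seen. Gatm, the first enzyme of creatine synthesis, had the smallest. It had 4.28, 3.53 and 3.12 log2 CPM in P0 crypt and 2.51, 3.14 and 2.53 in P0 villus, then 3.96, 4.26 and 4.12 in P3 crypt and 4.62, 5.86 and 5.32 in P3 villus. Its villus libraries at P3 were the highest of the 12, and those at P0 the lowest but for an overlap of 1 crypt library. The gap change of Gatm was -2.21 ± 0.49 (unadjusted p = 0.000596), and -1.72 ± 0.47 without the P0 replicate 1 libraries (adjusted p = 0.0985, edgeR). Fzd4, a Wnt receptor, had a gap change of -0.95 ± 0.25 and -1.09 ± 0.25, with a gap of -0.10 ± 0.17 at P0 and -1.05 ± 0.18 at P3. Tbx3, a T-box transcription factor, had -1.02 ± 0.27 and -0.95 ± 0.29, and Map3k1, a stress-signalling kinase, had -1.05 ± 0.28 and -1.31 ± 0.26. Map3k1 was higher in crypt at P0 by 0.99 ± 0.20, and its P3 gap was -0.06 ± 0.19. With the GC and length offset and without the P0 replicate 1 libraries the gap changes were -1.40 for Gatm, -0.53 for Fzd4, -0.77 for Tbx3 and -0.84 for Map3k1.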

How the data were processed

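Read counts per gene symbol were used as the authors deposited them. Per the submitters' processing notes the tools were STAR, HTSeq and Trim Galore, with build mm9. Versions, settings and the strand option of the counting are not given in the sources used here. Each library listed 47593 symbols and 5 summary lines, the latter left out; 6.80% to 13.5% of the reads listed for a P0 or P3 library lay in no gene.

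The 12 libraries were fitted together with edgeR 4.0.16 in R 4.3.3, with 1 coefficient per group (8 residual degrees of freedom, common dispersion 0.0828). Genes were kept by filterByExpr (minimum count 10, total 15) and scaled by TMM. The contrast (P3 crypt minus P3 villus) minus (P0 crypt minus P0 villus) was tested by the robust quasi-likelihood F test. Adjustment was by Benjamini-Hochberg over all tested genes, at a threshold of 0.05. Intervals are at 95%, and log2 CPM used a prior count of 2. The fit was also run on simulated counts with known gap changes, and the outcome is not reported here. Intervals cover the spread of libraries, and no molecular identifiers were used.

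Alternatives were other scalings and filters, DESeq2 1.42.0, limma-voom (limma 3.58.1), thinned counts, all 23 libraries, each library left out, both P0 replicate 1 libraries left out, a replicate block, offsets for transcript GC and length (natural splines, 5 degrees of freedom, transcripts of GENCODE M21, 99.05% of tested genes matched by symbol), and no mitochondrially encoded genes. The block at P3 only and the offset without P0 replicate 1 were chosen after seeing the data.

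The labels state no pairing. Deviations of equal-numbered crypt and villus libraries from their group means had correlations of 0.50, 0.92 and 0.16 at P3, and -0.21, 0.45 and 0.05 at P0. The equal-numbered P3 pairs were all positive, but P3 crypt 1 correlated more with P3 villus 3 (0.61) than with P3 villus 1. No fit but the alternatives with a replicate block used the numbers as pairs.

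The members and lists were chosen with earlier results of these data known. The rule for names took genes past the threshold, of which there were none, the 2 uncalled members of highest level per list, and 19 fixed genes; the text says where others were picked after their values were seen. Promoters are from RefSeq (GRCm38.p6), another build than the counts, and were matched by symbol. Some genes and 1 gene list are not reported here.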

Additional observations from a re-analysis of the deposited data

How the results depend on the processing

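The count of genes called for the gap change was 0 with all 12 libraries and under 26 of 27 alternatives. The exception, the GC and length offset without both P0 replicate 1 libraries, gave 200 of 15419. Genes with an unadjusted p under 0.05 numbered 261 positive and 588 negative. When each library was left out in turn they numbered 90 to 884 positive and 329 to 2244 negative, both highest without P0 villus 1. Without both P0 replicate 1 libraries they numbered 744 and 2351, with all 23 libraries 557 and 1139, with library size alone 471 and 287, with a filter of 1 CPM in 3 libraries 490 and 298, without mitochondrially encoded genes 495 and 348, and with the offset without P0 replicate 1 1504 and 1353. DESeq2 gave 453 positive, the offset alone 682 positive and no filter 966 negative. With a replicate block within age, though equal numbers did not go together at P0, they numbered 492 and 1019, and with the block and the offset 1192 and 1077. The block at P3 only gave 968 in all. The block called 0 genes in each of these fits.

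Genes called between crypt and villus at P0 numbered 2394. They numbered 715 to 4704 with 1 library left out, the lowest without P0 crypt 3 and the highest without P0 villus 1, and 5102 without both replicate 1 libraries. With all 23 libraries they numbered 4427, with the offset and replicate block 4631, and with the offset without P0 replicate 1 5688. At P3, 3895 genes were called, 2128 to 4613 with 1 library left out, 6404 with the offset and replicate block and 6445 with the offset without P0 replicate 1. With library size alone 2560 were higher in crypt and 444 lower at P0, and 3676 and 1085 at P3. The change from P0 to P3 in crypt was called for 6910 genes, 2781 with the offset and 2801 with the offset without P0 replicate 1, and that in villus for 8565, 4876 with the offset. List medians moved by more than a standard error in 36 of 945 alternatives. That error came from the spread of a list's median level over all 12 libraries. P0 replicate 1 was part of it, so the measure is not independent of the libraries left out. The interferon list counted as unmoved though its median went from -1.21 to -0.69 without both P0 replicate 1 libraries. The planned split of called genes by the population with the larger change was not run, as no gene was called. The causes of these differences were not tested.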
